A study of Mus musculus with 6 samples.

Results

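The genes described here are 10 genes of the choroid plexus epithelium, taken from 54838 genes in the deposited count table. They are the transcription factor genes Otx2, Lmx1a and Msx1, the claudin genes Cldn1 and Cldn2, and 5 genes with high expression in this epithelium, Tmem72, Mfrp, Calml4, 1500015O10Rik and Tmprss11a. They were chosen by symbol with the genotype difference of these same libraries already known. Their genotype differences are therefore given as a description, with no p-value for any of them, and calls of the fit over all genes are only counted.

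RNA was measured in hippocampi of 3 wild-type and 3 transgenic females, all at the age of 7 months. The transgenic line is FVB/NJ-Tg(ORAI1)Ibd, and it carries the human ORAI1 coding sequence in a Thy1 expression cassette, which drives expression in neurons. ORAI1 is the pore-forming subunit of a plasma membrane calcium channel that opens after depletion of intracellular stores. Each library was made from polyA RNA of 1 hippocampus and held between 37414241 and 52497799 assigned read counts.

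The choroid plexus is a folded sheet of epithelium on a vascular stroma inside the brain ventricles, and it secretes cerebrospinal fluid. The epithelium forms from the dorsal midline of the neural tube, the roof plate, where LMX1A and MSX1 are expressed, and OTX2 is needed to form it and to maintain it. Its cells are sealed by tight junctions, in which claudins set which ions and molecules pass between cells. A choroid plexus lies in the lateral ventricle along the fimbria, next to the hippocampus, and is not part of the hippocampus itself.

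Otx2, Lmx1a and Msx1 encode homeodomain proteins, so the promoters of all 10 genes were searched for letters that such proteins are known to bind. The window was the 250 bases before each RefSeq start site on build GRCm38.p6, and all 10 genes were matched, 1500015O10Rik under its RefSeq symbol Ecrg4. Otx2 has 4 annotated promoters and the other genes have 1 each. The motifs were TAATCC, bound by bicoid-class proteins such as OTX2, CAATTA, bound by MSX proteins, TAATTA, bound by LMX1 and many other homeodomain proteins, and GTAAACA, bound by forkhead proteins. Both strands were read, TAATTA is its own reverse complement, and no base was shared between matches. The 4 windows below carry matches, which are in capitals, and are shown to place them beside the genes whose levels follow. The Otx2 window is chr14:48665110-48665359 on the minus strand, the Mfrp window chr9:44101520-44101769 on the plus strand, the Tmem72 window chr6:116716759-116717008 and the Cldn1 window chr16:26371840-26372089, both on the minus strand.
Otx2 second promoter: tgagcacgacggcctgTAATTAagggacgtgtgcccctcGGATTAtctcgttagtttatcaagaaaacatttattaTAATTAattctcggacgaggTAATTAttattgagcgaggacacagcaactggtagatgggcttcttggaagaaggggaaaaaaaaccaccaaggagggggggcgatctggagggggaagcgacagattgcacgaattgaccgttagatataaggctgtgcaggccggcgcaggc
Mfrp: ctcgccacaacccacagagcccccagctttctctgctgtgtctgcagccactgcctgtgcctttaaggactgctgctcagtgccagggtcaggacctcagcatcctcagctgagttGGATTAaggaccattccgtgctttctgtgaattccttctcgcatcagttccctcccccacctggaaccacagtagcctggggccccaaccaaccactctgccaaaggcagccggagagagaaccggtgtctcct
Tmem72: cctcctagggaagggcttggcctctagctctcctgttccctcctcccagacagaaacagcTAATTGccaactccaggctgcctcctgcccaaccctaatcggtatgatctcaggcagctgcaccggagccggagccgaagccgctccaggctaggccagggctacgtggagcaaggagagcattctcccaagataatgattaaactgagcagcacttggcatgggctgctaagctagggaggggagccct
Cldn1: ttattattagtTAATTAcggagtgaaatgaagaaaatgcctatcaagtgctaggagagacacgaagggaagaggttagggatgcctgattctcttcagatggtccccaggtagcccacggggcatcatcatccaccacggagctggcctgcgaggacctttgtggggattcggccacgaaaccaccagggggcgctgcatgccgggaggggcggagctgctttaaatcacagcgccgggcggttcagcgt

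TAATCC was present in 2 of the 10 genes, Otx2 and Mfrp, in both as its reverse complement, and in 7.21% of all genes with a promoter in the table (any promoter of a gene, 32851 promoters in all). The Mfrp match lay from position -134 to -129 and the Otx2 match from position -211 to -206 relative to the start site. TAATTA was found in Otx2 and Cldn1 and in 5.65% of all genes, with 3 copies in the Otx2 window shown. CAATTA was found in Otx2 and Tmem72 and in 8.30% of all genes. GTAAACA was found in 0 of the 10 genes and in 3.54% of all genes. Each motif is short and a match is a description of letters only.

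All 10 genes passed the filter on low counts, and in all 10 the 3 transgenic libraries lay below the 3 wild-type libraries. Over all 19087 genes tested, 17.9% showed this order. By the quasi-likelihood test of edgeR at an adjusted p of 0.05, all 10 were among the 764 genes called lower, which are 4.00% of the genes tested, and 0 were among the 591 called higher, which are 3.10%. Since these genes were selected on this contrast, nothing is read from either count. The log2 fold changes of the 10 lay between -4.35 and -0.94 and had a median of -2.50, where all genes tested had a median of -0.01. Together they took 0.0153% to 0.0216% of all counts in wild-type libraries and 0.00237% to 0.00310% in transgenic libraries. In bulk tissue, fewer cells of a type in the sample and less RNA per cell cannot be told apart, and this holds for each value below. The labels and methods do not say how the choroid plexus was treated at dissection, so the amount taken along with each hippocampus is not known.

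Levels per library are normalised counts (CPM, counts relative to the TMM-scaled library total), in the order of replicates 1, 2 and 3. Otx2, the homeobox gene that specifies and maintains choroid plexus epithelium, measured 16.4, 17.2 and 11.97 CPM in wild-type mice and 4.42, 2.36 and 3.10 CPM in transgenic mice. The groups did not overlap, and the transgenic mean of 3.29 ± 1.04 (SD, n = 3) was 21.7% of the wild-type mean of 15.2 ± 2.82. Its log2 fold change was -2.20 (SE 0.23). The gene lies at chr14:48657677-48673819 and shares 168 exonic bases on its own strand with the predicted gene Gm49154, so fragments there were not assigned to either.

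Lmx1a, a LIM homeobox gene of the roof plate, had 3.50, 3.77 and 2.54 CPM in wild-type mice and 1.14, 0.786 and 0.614 CPM in transgenic mice. The groups did not overlap, and its log2 fold change was -1.93 (SE 0.26). Msx1, a homeobox gene that responds to bone morphogenetic protein signals, had 14.1, 15.2 and 12.1 CPM in wild-type mice and 6.54, 8.28 and 6.81 CPM in transgenic mice. Its groups stood closest of all 10 genes, with the lowest wild-type value 1.46 times the highest transgenic value. The transgenic mean of Msx1 was 52.2% of the wild-type mean, and its log2 fold change of -0.94 (SE 0.12) was the smallest of the 10.

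The 2 claudin genes encode tight junction proteins with opposite known properties. Claudin-1 is a sealing claudin. Its gene Cldn1 had 9.76, 7.70 and 7.05 CPM in wild-type mice and 1.35, 2.10 and 2.56 CPM in transgenic mice. The log2 fold change of Cldn1 was -2.04 (SE 0.24). Claudin-2 forms a pore for sodium ions and water and is a hallmark of leaky epithelia. Its gene Cldn2 had 16.6, 16.2 and 9.99 CPM in wild-type mice and 2.25, 1.73 and 1.76 CPM in transgenic mice. The log2 fold change of Cldn2 was -2.89 (SE 0.23). Neither gene overlapped between genotypes, and the transgenic mean was 24.5% of the wild-type mean for Cldn1 and 13.4% for Cldn2.

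Tmem72, which encodes a transmembrane protein, had 91.1, 75.0 and 63.0 CPM in wild-type mice and 5.15, 1.81 and 4.17 CPM in transgenic mice. The transgenic mean was 4.85% of the wild-type mean, and the log2 fold change of -4.35 (SE 0.31) was the lowest of all 19087 genes tested. Mfrp, a membrane frizzled-related gene also known from the retinal pigment epithelium, had 23.3, 22.6 and 15.4 CPM in wild-type mice and 2.04, 0.734 and 1.58 CPM in transgenic mice. Its log2 fold change was -3.80 (SE 0.31), the fifth lowest. Mfrp shares 1589 exonic bases, 36.7% of its exonic length, with C1qtnf5 on the same strand. C1qtnf5 was listed at 0 in every library, and fragments in the shared exons were assigned to neither gene.

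Tmprss11a, a gene for a transmembrane serine protease, had 342, 220 and 169 counts in wild-type libraries and 22, 8 and 12 counts in transgenic libraries. In CPM this was 6.53, 5.21 and 4.46 against 0.472, 0.210 and 0.320, and the log2 fold change of -3.98 (SE 0.28) was the second lowest of all genes tested. All 3 transgenic values stood above the level of 3 counts, which corresponds to 0.0643 to 0.0801 CPM in these libraries. The RIKEN gene 1500015O10Rik encodes the secreted peptide precursor augurin, also named ECRG4. It had 25.1, 28.5 and 19.4 CPM in wild-type mice and 3.58, 3.09 and 3.85 CPM in transgenic mice. This gave a log2 fold change of -2.80 (SE 0.16). Its relative spread was the smallest of the 10 genes among transgenic mice, with an SD of 10.9% of the mean.

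Calml4, a gene for a calmodulin-like protein of intestinal brush borders, had 10.6, 13.6 and 6.68 CPM in wild-type mice and 4.35, 2.59 and 3.15 CPM in transgenic mice. The groups did not overlap, but the lowest wild-type value was only 1.54 times the highest transgenic value. Its log2 fold change was -1.61 (SE 0.29). Calls in the genotype test were lost for 3 of the 10 genes in fits with 1 library left out. Lmx1a and Calml4 lost the call when wild-type 1, wild-type 2, transgenic 2 or transgenic 3 was left out, and Msx1 lost it without wild-type 1, wild-type 2 or transgenic 3. The count of calls was then 7, 7, 8 and 7 of 10 without wild-type 1, wild-type 2, transgenic 2 and transgenic 3, and 10 of 10 without either of the other libraries. Calls over all genes tested fell from 1355 to 77, 94, 192 and 108 with the same libraries left out in turn. They were 1031 without wild-type 3 and 1149 without transgenic 1.

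**Figure D1:**
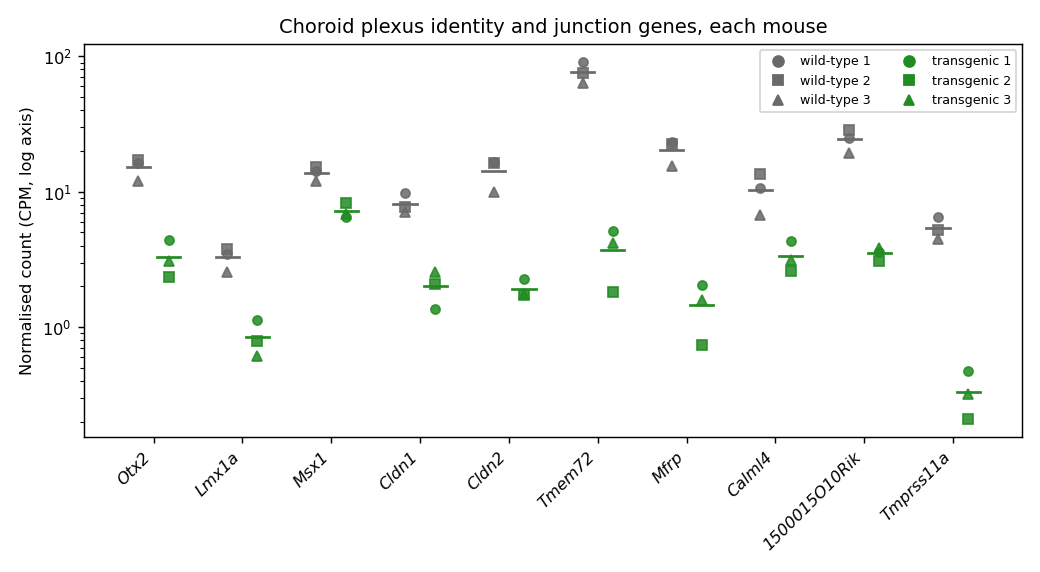
Normalised counts (CPM, log axis) of the 10 genes in each of the 6 hippocampi. Each point is 1 mouse, symbols give the replicate number and bars give the genotype mean. The points of each gene are separate between genotypes, with the narrowest gap in Msx1 and the widest in Tmem72.

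Levels of different genes were compared per length, as FPKM, counts relative to the library total and to the deposited gene length. In wild-type mice 1500015O10Rik stood first at 27.0 ± 5.05 FPKM (SD, n = 3), above the range of every other gene. Mfrp, Msx1, Tmem72, Cldn2, Otx2 and Calml4 followed with means from 4.71 down to 2.82 FPKM, and neighbours in this order overlapped. The level of Mfrp is a low estimate, since its length includes the 1589 bases shared with C1qtnf5 in which no fragment was assigned to it, so its place in the order is uncertain. Cldn1 at 1.69 FPKM overlapped with Calml4, while Lmx1a at 0.962 and Tmprss11a at 0.946 FPKM lay below Cldn1 and overlapped with each other. The median over all tested genes was 3.78 FPKM in wild-type mice.

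The order was different in transgenic mice. 1500015O10Rik at 3.88 ± 0.42 FPKM and Msx1 at 2.32 ± 0.31 FPKM were each separate from the next gene. Calml4, Otx2, Cldn2, Cldn1, Mfrp, Lmx1a and Tmem72 followed from 0.922 down to 0.215 FPKM with overlapping neighbours, and Tmprss11a was last at 0.0582 FPKM. Tmem72 went from place 4 to place 9, Mfrp from place 2 to place 7, Calml4 from place 7 to place 3 and Msx1 from place 3 to place 2. The deposited length of Calml4 sums the exons of 7 transcripts to 3642 bases. With the longest coding transcript of 864 bases instead, an alternative chosen after seeing the data, Calml4 stood at 11.9 FPKM and took place 2 in wild-type mice. The same alternative put Msx1 at place 3, Otx2 at place 4, Mfrp at place 5 and Tmem72 at place 7 there. In transgenic mice it put Calml4, 1500015O10Rik and Msx1 at 3.885, 3.88 and 3.72 FPKM with overlapping ranges, Mfrp at place 7 and Tmem72 at place 9. The order among the first genes in transgenic mice, and the size of the moves of Tmem72, Mfrp, Msx1 and Calml4, therefore depended on the length used.

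Mice of a genotype also differed among themselves, and the genes followed each other in this. Wild-type 3 was the lowest wild-type mouse for all 10 genes, at a median of -0.32 from the wild-type mean on the log2 CPM scale. Wild-type 1 was the highest for 5 genes and wild-type 2 for the other 5. Among transgenic mice, transgenic 1 was the highest for 7 genes and transgenic 2 the lowest for 7. Tmem72 and Mfrp were the most spread, with transgenic 1 at 0.60 and 0.59 above and transgenic 2 at -0.89 and -0.82 from the transgenic mean of log2 CPM. Ttr, which encodes the transport protein transthyretin, the highest per length of the choroid plexus genes listed here, had 383, 179 and 301 CPM in transgenic mice and was also lowest in transgenic 2. 4 genes had other orders. Lmx1a was lowest and 1500015O10Rik highest in transgenic 3. Msx1 was highest in transgenic 2, and Cldn1 was lowest in transgenic 1 at -0.51 and highest in transgenic 3 at 0.40. Genes counted in 1 library share its dissection and depth, so these orders are not independent between genes.

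**Figure D2:**
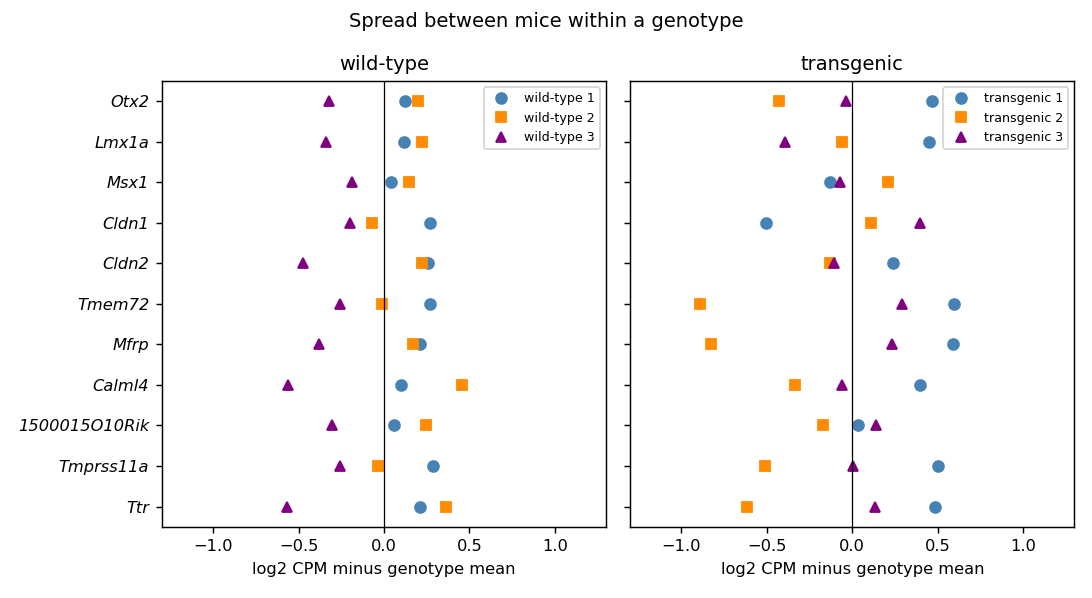
Difference of each mouse from its genotype mean (log2 CPM, horizontal axis) for the 10 genes and Ttr, with wild-type mice on the left and transgenic mice on the right. Wild-type 3 lies lowest in all rows, and transgenic 2 lies lowest in most rows but highest for Msx1.

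Summed CPM of meningeal fibroblast genes went the other way among transgenic mice, with 139, 427 and 267 CPM in replicates 1, 2 and 3, while Tmem72 was lowest in replicate 2. The sums were 239, 231 and 328 CPM in wild-type mice. Transgenic 1 was also the lowest and transgenic 2 the highest transgenic mouse in the summed level of astrocyte genes (4233, 5442 and 5385 CPM) and of microglia genes (269, 411 and 395 CPM). Wild-type 3 was the highest wild-type mouse in both, with 6129 and 380 CPM. Across 11191 genes, which are not independent replicates, the deviations of a wild-type and a transgenic library from their genotype means correlated between -0.59 (wild-type 3 with transgenic 1) and 0.54 (wild-type 3 with transgenic 2) over the 9 pairs. The part of these differences between libraries in the levels of the 10 genes was not tested.

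A list of 24 other choroid plexus epithelium genes gives the setting of the 10 genes. Like all lists here, it was written with earlier results of these data known. Adjusted p-values of listed genes are those of the fit over all genes and give the lists no independent support. Of the 24 genes, all were tested, 21 were lower past the threshold and 0 higher, with a median log2 fold change of -2.26. The 3 that did not pass were Slc29a4 at 0.04 (SE 0.07), Slc13a4 at -0.64 (SE 0.40) and Slco1a5 at -0.31 (SE 0.37) on the log2 scale. The 3 highest per length were Ttr, Enpp2, which encodes autotaxin, and Igfbp2, a binding protein of insulin-like growth factors. Ttr fell from 3146 ± 975 to 288 ± 103 CPM (log2 fold change -3.45, adjusted p = 0.0047 in edgeR's quasi-likelihood test). Enpp2 and Igfbp2 fell with log2 fold changes of -2.24 and -1.25 (adjusted p = 0.0002 and 0.0219 in the same test). The calls of 16 of the 21 genes held with each library left out in turn, while those of Igfbp2, Clic6, Car14, Slc2a12 and Abca4 did not. The Igfbp2 call was lost without wild-type 1, wild-type 2 or transgenic 3.

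The 10 genes did not all differ by the same amount as the mean of this list. Nor did the genes of the list itself, whose log2 fold changes ran from -3.69 to 0.04. The mean log2 CPM of the 24 genes was 5.21, 5.18 and 4.88 in wild-type libraries and 2.94, 3.05 and 3.03 in transgenic libraries, a difference of -2.08. Taken as a log2 ratio to this mean, Otx2 (-0.14), Cldn1 (0.05), Lmx1a (0.17) and Calml4 (0.51) differed little between genotypes and their ranges overlapped. Msx1 was relatively higher in transgenic mice by 1.15 without overlap. Tmem72 (-2.38), Tmprss11a (-1.80), Mfrp (-1.78), Cldn2 (-0.76) and 1500015O10Rik (-0.69) were relatively lower, each without overlap. These values depend on the reference chosen. Relative to Ttr alone, Tmem72 was lower by a log2 difference of -0.99 and Mfrp by -0.40, Tmprss11a overlapped at -0.41, 1500015O10Rik overlapped at 0.70, and the other 6 genes were relatively higher without overlap, by 0.63 to 2.53. These are descriptions of the same contrast and carry no test.

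The claudin family and other tight junction genes were taken as lists of their own. Of 32 other claudin genes, 31 were in the table, 9 were listed at 0 in every library and 10 passed the filter. Of these 10, 1 was higher and 2 were lower past the threshold, with a median log2 fold change of -0.13. Cldn5, the main claudin of brain endothelium, rose from 21.6 ± 2.67 to 34.0 ± 6.40 CPM (log2 fold change 0.66, SE 0.15, adjusted p = 0.0430 in edgeR's quasi-likelihood test). Its values were 21.6, 18.9 and 24.2 CPM in wild-type mice and 27.7, 40.5 and 33.7 CPM in transgenic mice, without overlap. Cldn3 and Cldn9 fell with log2 fold changes of -1.43 and -1.89 (adjusted p = 0.0307 and 0.0443 in the same test), both at about 1 CPM or less. Cldn9 rested on 3, 8 and 6 counts in transgenic libraries.

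None of these 3 calls held with every library left out in turn. The Cldn5 call was lost without wild-type 1, wild-type 2, transgenic 2 or transgenic 3. Those of Cldn3 and Cldn9 were lost whenever a library other than wild-type 3 was left out. The calls of Cldn5 and Cldn9 were also lost in the fit with offsets for the GC content of genes, and those of Cldn3 and Cldn9 in DESeq2's Wald test. Cldn9 was lost as well where at least 10 counts were required in every library. Cldn11, the claudin of myelin, had 151 ± 32.9 CPM in wild-type mice and 161 ± 40.7 CPM in transgenic mice. The log2 fold changes of Cldn10 (0.01), Cldn12 (-0.12), Cldn22 (0.19), Cldn34c1 (-0.15), Cldn23 (-0.44) and Cldn19 (-1.02) did not pass the threshold either.

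**Figure D3:**
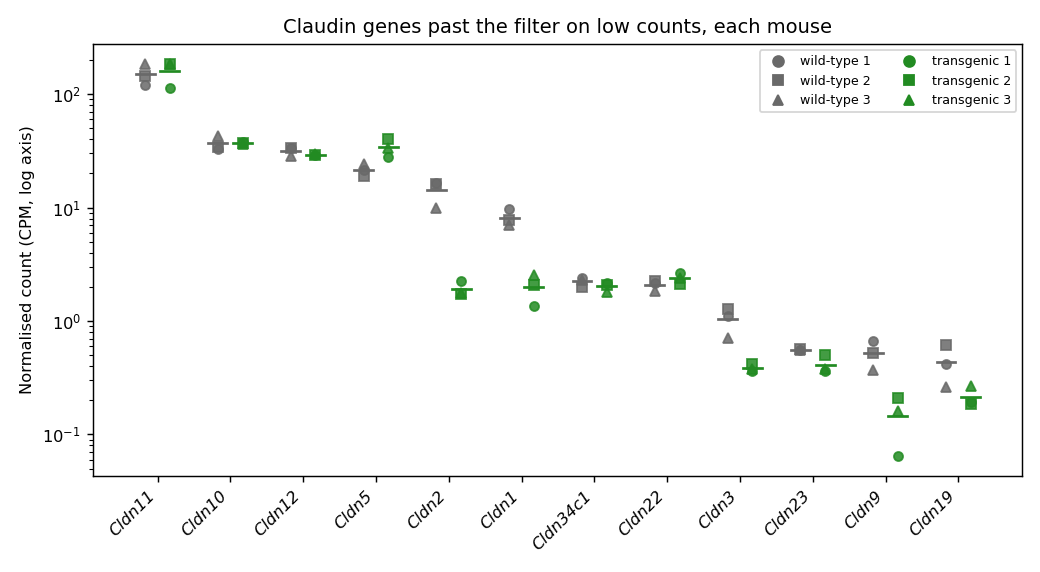
Normalised counts (CPM, log axis) of the 12 claudin genes that passed the filter on low counts, ordered by the wild-type mean. Points are single mice and bars are genotype means. Cldn2 and Cldn1 lie lower in transgenic mice, at means of 1.91 and 2.004 CPM, while Cldn11, Cldn10 and Cldn12 lie at similar heights in both genotypes and Cldn5 is higher in transgenic mice.

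Of 22 other tight junction genes, all were tested, 5 were lower past the threshold and 0 higher, with a median log2 fold change of -0.16. Cgnl1, which encodes the junction scaffold paracingulin, fell from 53.7 ± 5.43 to 25.1 ± 6.95 CPM (adjusted p = 0.0266 in edgeR's quasi-likelihood test). Tjp3, Marveld3, Crb3 and Patj fell with log2 fold changes of -1.32, -2.13, -1.10 and -0.31 (adjusted p = 0.0348, 0.0431, 0.0471 and 0.0441 in the same test). The 3 most expressed per length, Ildr2, Tjp1 and Jam3, had log2 fold changes of -0.17, -0.07 and 0.11 and did not pass. None of the 5 calls held with every library left out in turn, and 2 remained called with GC offsets, Cgnl1 and Tjp3. Cgnl1 lost it without wild-type 1, wild-type 2 or transgenic 3, Tjp3 also without transgenic 2, Marveld3 also without transgenic 1 or 2, and Patj and Crb3 whichever library was left out. The Marveld3 call, which rested on 6, 8 and 5 counts in transgenic libraries, was also lost in DESeq2's Wald test, in limma-voom and where at least 10 counts were required in every library, and the Crb3 call in limma-voom.

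Among 26 other transcription factors and signals of the roof plate and choroid plexus, 22 were tested, 1 was lower past the threshold and 0 higher, with a median log2 fold change of -0.24. That gene was Gmnc, which encodes geminin coiled-coil protein GEMC1, a regulator of multiciliated cells. Gmnc fell from 6.55 ± 2.06 to 1.90 ± 0.78 CPM (adjusted p = 0.0340 in edgeR's quasi-likelihood test), and the call was lost without wild-type 1, wild-type 2, transgenic 2 or transgenic 3, and in the fit with GC offsets. The closest relatives of the 3 transcription factor genes, Otx1 (0.01), Lmx1b (-0.24) and Msx2 (-0.06), did not pass the threshold. Neither did Lhx2 (0.12) and Rfx3 (-0.18), the most expressed of the list per length in both genotypes. Zic2 (-0.41) came next by the mean over all 6 libraries and Zic1 (-1.01) by the wild-type mean alone, and neither passed. The list held 4 calls in DESeq2's Wald test, and 4 with no filter on low counts.

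Relatives and neighbours of the 10 genes gave no call among the 4 tested. Calm2 and Calm3 had log2 fold changes of -0.07 and 0.14, and Cln6, next to Calml4, had 0.03. Calm3 was called in DESeq2's Wald test. Otx2os1, the transcript opposite to Otx2, did not pass the filter. It had 22, 30 and 8 counts in wild-type libraries and 4, 3 and 2 in transgenic libraries, without overlap, and was called lower with no filter on low counts and without wild-type 3. General epithelial genes were split. Of 15 genes 11 were tested, 4 were lower past the threshold and 0 higher, with a median log2 fold change of -0.34. The keratin genes Krt18 and Krt8, the cadherin gene Cdh3 and the protease inhibitor gene Spint2 fell with log2 fold changes of -2.17, -1.93, -2.78 and -1.01 (adjusted p = 0.0176, 0.0110, 0.0099 and 0.0126 in edgeR's quasi-likelihood test). All 4 calls were lost without wild-type 1 or transgenic 3, and those of Krt18 and Spint2 also without wild-type 2. Epcam at 0.02 and Cdh1 at -0.21 did not pass.

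**Figure D4:**
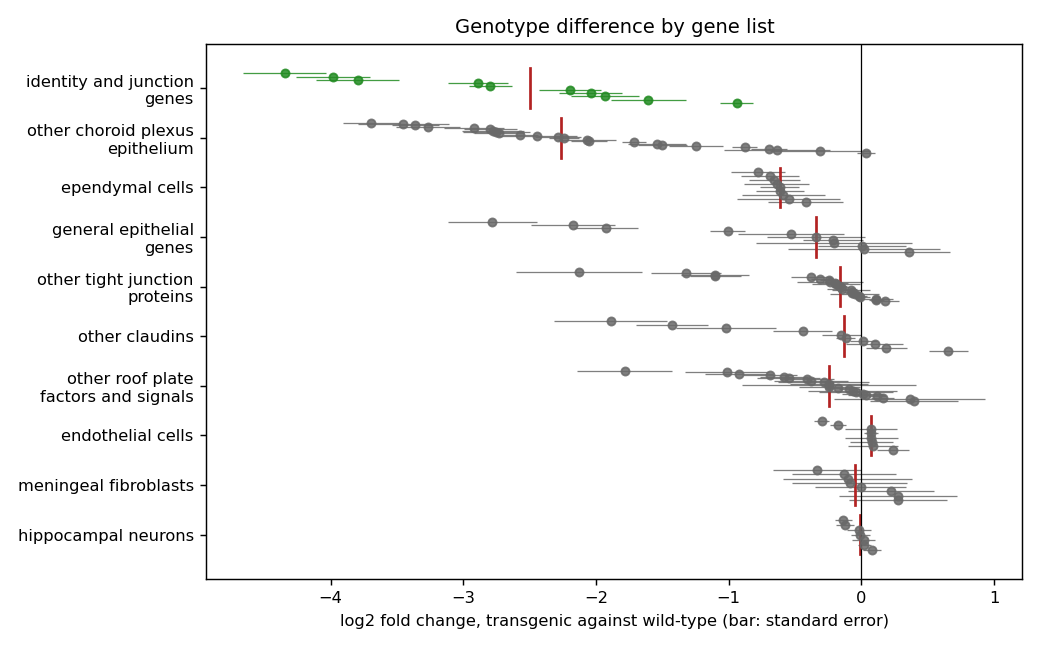
Log2 fold change, transgenic against wild-type, of each tested gene by list (points, with standard errors), with the list median as a red line. The 10 genes (green, median -2.50) and the other choroid plexus genes (median -2.26) lie left of the other lists plotted, whose medians run from -0.61 in ependymal genes to 0.07 in endothelial genes.

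Markers of other cells were compared because a hippocampal dissection can hold them. Of 10 ependymal genes, which mark the ciliated lining of the ventricles, 9 were tested, 1 was lower past the threshold (Hydin, log2 fold change -0.61) and 0 higher, with a median of -0.61. Their summed level ran from 45.9 to 70.4 CPM in wild-type mice and from 29.5 to 44.7 CPM in transgenic mice, so it moved with the genotype, and its part in the differences of the 10 genes was not tested. The 3 most expressed per length, Rsph1, Tmem212 and Dynlrb2, had log2 fold changes of -0.66, -0.55 and -0.59 and did not pass. The Hydin call was lost whenever a library other than transgenic 1 was left out. It was also lost with GC offsets, with DESeq2's size factors and where at least 10 counts were required in every library. DESeq2's Wald test called 5 ependymal genes and the fit with no filter on low counts 4. Of 8 endothelial genes 1 was lower (Slco1c1, -0.30, a call lost without 4 of the 6 libraries and with GC offsets) and 0 higher. The wild-type mice summed to 341 to 360 CPM over these genes and the transgenic mice to 305 to 372 CPM.

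The lists for meningeal fibroblasts (8 genes), astrocytes (6), oligodendrocytes (6), microglia (6), hippocampal neurons (7) and thalamus or midbrain (5 tested of 8) held 0 genes past the threshold in edgeR's quasi-likelihood test. Slc17a6 was called lower in DESeq2's Wald test and with no filter on low counts, and Neurod6 without transgenic 1. Their median log2 fold changes ran from -0.05 to 0.21. Among the most expressed genes of these lists per length were Dcn, Aebp1 and Ogn for fibroblasts, Slc1a2, Gfap and Slc1a3 for astrocytes, Mbp and Mobp for oligodendrocytes and C1qa and Csf1r for microglia. Snap25, Syt1 and Neurod6, the most expressed of the hippocampal neuron genes, had log2 fold changes of 0.02, -0.12 and -0.14. Summed levels of the neuron list were 4355 to 4608 CPM in wild-type mice and 4309 to 4481 CPM in transgenic mice. Snap25 and Syt1 make up most of that sum and are expressed by neurons throughout the brain. Prox1, which marks granule cells of the dentate gyrus, had 95.5 ± 2.21 CPM in wild-type mice and 96.8 ± 12.3 CPM in transgenic mice. For the thalamus and midbrain list, Slc17a6, Tcf7l2 and Lef1 had log2 fold changes of -0.62, 0.06 and 0.12.

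Summed over the 10 genes, the wild-type mice had 153 to 217 CPM and the transgenic mice 23.7 to 31.3 CPM, a ratio of means of 6.93. The 24 other choroid plexus genes summed to 4225 to 6434 CPM and 801 to 1043 CPM, a ratio of 6.09. Orai1 counts rose from 7.47 ± 0.53 to 320.2 ± 9.54 CPM with the transgene (log2 fold change 5.42), so the labels matched the transgene in all 6 libraries.

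The genes whose log2 CPM followed the mean of the 10 genes most closely over the 6 libraries were Slc4a5, Col4a3, Lrriq1, Slc28a3, Folr1, Enpp2, Iqub and Tctn2, with Pearson's r from 0.997 to 0.999. Slc4a5, a sodium bicarbonate cotransporter gene, Folr1, a folate receptor gene, and Enpp2 belong to the choroid plexus list. Of 19077 genes compared, 468 had an r over 0.95 (2.45%). The 6 libraries form 2 genotypes, and Tctn2 reached 0.997 although its means were as near as 22.0 (wild-type) and 20.03 CPM (transgenic).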

How the data were processed

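Hippocampal polyA RNA of 3 wild-type and 3 transgenic females was sequenced. The authors filtered reads with Trimmomatic, aligned them to mm10 with STAR and counted fragments per gene with featureCounts (version 1.5.0-p1), per the file header. The deposited values are raw counts for 54838 genes, with a deposited gene length in bases, the summed exonic length (other annotation, not a measurement). The counting was strand-specific and left fragments over several genes unassigned.

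The 10 genes and all gene lists were chosen with earlier results of these data known. Symbols and positions came from GENCODE M21 on GRCm38 and promoter sequences from RefSeq on GRCm38.p6. Counts were filtered with filterByExpr (minimum count 10), scaled by TMM and fitted with edgeR 4.0.16 (glmQLFit, glmQLFTest) in R 4.3.3, with Benjamini-Hochberg adjustment over 19087 genes and a threshold of 0.05. The fit was tested on simulated data. CPM used TMM-scaled totals, and FPKM used deposited lengths and totals. Means are given with SD, and fold changes with SE. This SE was the absolute log2 fold change divided by the square root of the F statistic of the quasi-likelihood test. Library totals ran from 37414241 to 52497799 counts. With 3 against 3 samples an exact permutation test cannot go below p = 0.1, so single values were not tested that way. The p-values set the genotype difference against the spread between these samples. The labels give no preparation batches, so a batch that followed the genotype could not be told apart from it.

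Named genes were the 10 genes, the claudins and the relatives or neighbours that passed the filter, the 3 genes with the highest mean FPKM of each other list, called genes of the junction and transcription factor lists, the 8 genes with the highest Pearson correlation with the mean of the 10, and Orai1. The exceptions, Slc29a4, Slc13a4, Slco1a5, Clic6, Car14, Slc2a12, Abca4, Kcne2, Kl, Cdh3, Epcam, Cdh1, Otx1, Lmx1b, Msx2, Zic1, Otx2os1, Prox1, Hydin and Slco1c1, were named after their values were seen. Some genes that this rule names are not reported here. Protein sequences were not analysed here. The alternatives were DESeq2 1.42.0, limma 3.58.1 (voom), other scalings and filters, a replicate block, GC offsets, another gene length, another reference gene and each library left out in turn.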

Additional observations from a re-analysis of the deposited data

How the results depend on the processing

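The log2 fold changes of the 10 genes stayed negative under each of 16 alternatives in which they were tested. All 10 genes were called lower under each alternative except 2 kinds: with at least 10 counts required in every library, where Tmprss11a was not tested and 9 were called, and with a library left out, where 7 to 10 were called. The number of genes past the threshold over the whole table was 1355, and 2230 in DESeq2's Wald test, 738 with the replicate block, 412 with GC offsets and 474 with GC offsets and the replicate block. It ran from 77 to 1149 when a library was left out, with 77 without wild-type 1, 94 without wild-type 2, 192 without transgenic 2 and 108 without transgenic 3. Of the other lists, 36 genes were past the threshold, 43 in DESeq2's Wald test and with no filter on low counts, 28 with GC offsets, and 16 to 36 with a library left out (16 without wild-type 1, 19 without wild-type 2, 17 without transgenic 3). The cause was not tested. Same-numbered samples of the genotypes were not paired: their deviations correlated from -0.36 to 0.40, so the replicate block is given here only, and it changed no call of the 10 genes but ended those of Cldn5, Cldn9, Patj, Crb3 and Hydin. The median of the 10 genes in FPKM over wild-type mice was 3.94, and 4.71 with the longest coding transcript as length, an alternative chosen after seeing the data. The median genotype difference of the 10 genes relative to the choroid plexus list was -0.41 and reversed to 0.97 relative to Ttr alone, whose log2 fold change was -3.45 beside a list mean difference of -2.08. Library totals limit Tmprss11a, at 8 to 22 counts in transgenic libraries, Cldn9, at 3 to 8, and Marveld3, at 5 to 8.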
